A study of Mus musculus with 2 samples.

Results

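The cells described here were innate lymphoid cells (ILCs) of the mouse small intestine with many transcripts of Il22 and hardly any of the MHC class II genes. They numbered 859 of the 5490 cells that the authors kept from the small intestine library, or 15.6% (exact Clopper-Pearson 95% interval 14.7 to 16.6), among 13039 cells from both libraries. A cell was a member when it had at least 5 Il22 molecules (UMIs, the deduplicated reads of single transcripts) and no UMI of Cd3d, Cd3e, Cd3g, Ncr1, Tbx21 or Ccr6, with no more than 1 UMI summed over Cd74, H2-Aa, H2-Ab1 and H2-Eb1. The study sorted IL7ra+ ILCs by flow cytometry from digested small intestine and colon of C57BL/6 mice aged 8 weeks. Each library pooled 8 mice and was made with the 10x Genomics 3′ v2 kit. The labels call the libraries Fed SI and Fed Colon, and name no mutation and no treatment. With 1 library per tissue there was no replicate, so no difference below carries a test, and each interval covers counting error only.

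ILCs are lymphocytes without rearranged antigen receptors. Those of group 3 (ILC3) release IL-22 and IL-17 when IL-23 and IL-1β reach them. IL-22 acts on the gut epithelium, where it induces antimicrobial proteins, mucus and repair. One branch of ILC3 resembles lymphoid tissue inducer (LTi) cells, carries CCR6 and can present antigen on MHC class II. The other carries the natural cytotoxicity receptor NKp46 (Ncr1) and can take on the T-bet (Tbx21) programme of ILC1. By the rule, the members had Il22, no UMI of Ccr6, Ncr1 or Tbx21, and at most 1 class II UMI.

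Il22 lies on mouse chromosome 10 (mm10, 118204942 to 118210047, plus strand). Il17f, the cytokine gene with the clearest excess in the members over the other small intestine cells, lies on chromosome 1 (20777146 to 20790617, minus strand). Il17f was not higher in the members than in the Il22-high cells with Ccr6 or class II, described below. The promoters of Il22 and Il17f are shown because these cytokine genes define the members or stand out against the other small intestine cells. Each run is the RefSeq sequence on GRCm38.p6 from 250 bases before to 50 bases after the annotated start, at chr10:118204714-118205013 on the plus strand for Il22 and chr1:20784221-20784520 on the minus strand for Il17f. The gene spans above come from another annotation, GENCODE, and the whole Il17f window lies inside its span there.
Il22: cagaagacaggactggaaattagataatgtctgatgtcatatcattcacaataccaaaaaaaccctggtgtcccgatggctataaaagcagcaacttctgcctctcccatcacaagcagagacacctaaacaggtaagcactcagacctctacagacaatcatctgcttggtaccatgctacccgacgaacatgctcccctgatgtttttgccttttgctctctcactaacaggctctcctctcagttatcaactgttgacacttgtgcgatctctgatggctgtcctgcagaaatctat
Il17f: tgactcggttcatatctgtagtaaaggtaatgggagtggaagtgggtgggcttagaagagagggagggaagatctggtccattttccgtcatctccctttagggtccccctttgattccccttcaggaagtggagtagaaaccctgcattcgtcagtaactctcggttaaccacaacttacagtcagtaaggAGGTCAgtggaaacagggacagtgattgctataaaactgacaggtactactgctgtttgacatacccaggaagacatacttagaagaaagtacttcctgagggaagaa
The capitals mark the only match found on either strand, AGGTCA, a half-site of the elements that nuclear receptors bind, 58 bases before the Il17f start. That core occurs in 16.3% of the 32851 mouse promoter windows of this length. The other motifs searched were TTCNNNGAA, bound by STAT proteins and present in 8.30% of windows, and TGANTCA, bound by AP-1 and present in 7.81%. Neither run held either of them, and the Il22 run also lacked AGGTCA, which says only that these letters are not in this window. Il22 has a near-identical neighbour, Iltifb (chromosome 10, 118289629 to 118295038, minus strand): their transcripts share 1081 of 1110 aligned bases, 97.4%. Reads that fit both could be split between them or dropped. The table lists 51 Iltifb UMIs in 41 members. Dropped reads would appear under neither gene, so the Il22 values are uncertain by an amount not given here.

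Il22 chose the members, and its values are given only as a description. The members held between 5 and 277 Il22 UMIs, with a median of 18 and quartiles of 10 and 36. The cells were spread widely: 199 had 5 to 9 UMIs, 257 had 10 to 19, 269 had 20 to 49, 107 had 50 to 99 and 27 had 100 or more. The highest Il22 share of a single member's UMIs was 8.72%, in another cell than the one with 277 Il22 UMIs. In the members together the share was 1.16%. The 86 members with most Il22, the top 10%, held 33.9% of the members' Il22 UMIs. The members together held 24342 of the 61690 Il22 UMIs in the small intestine cells, or 39.5%.

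**Figure D1:**
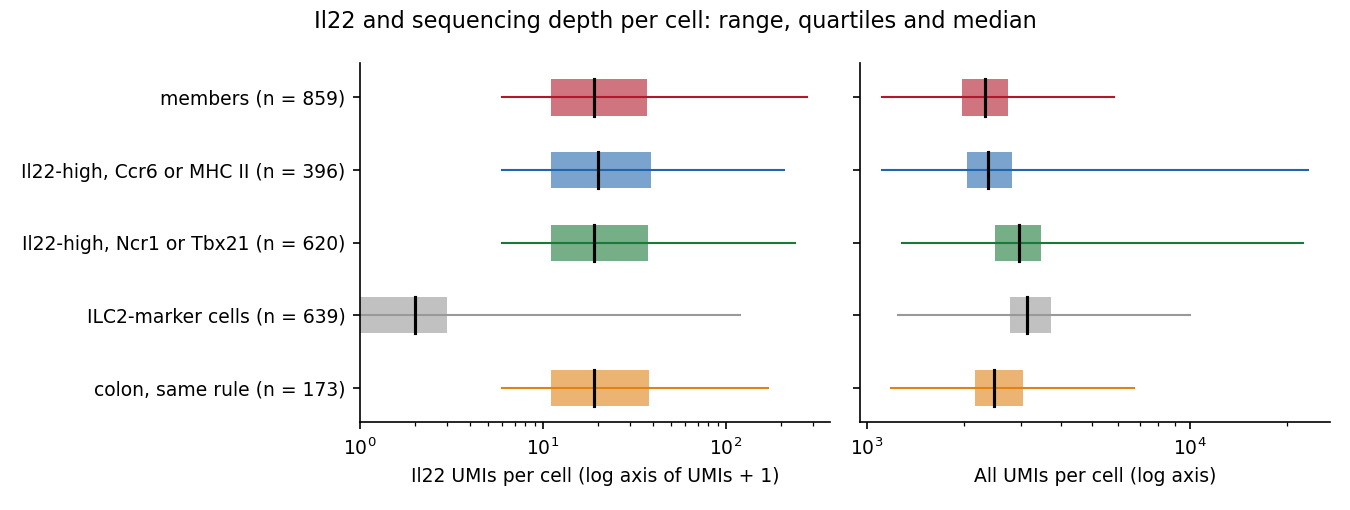
Il22 UMIs (left, log axis of UMIs + 1) and all UMIs (right, log axis) per cell, with the range as a line, the quartiles as a bar and the median as a black tick. The members had a median of 18 Il22 UMIs, equal to the 18 of the Ncr1 or Tbx21 cells and of the colon cells that pass the same rule, while the ILC2-marker cells had 1.

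Just inside and just outside the thresholds, cells that met every other condition numbered 53 with 4 Il22 UMIs and 55 with 5, at median depths of 2426 and 2215 UMIs. Of the members, 760 had no UMI of the 4 class II genes and 99 had 1, and 26 cells just outside had 2. A single Ncr1 UMI kept out 210 cells, a single Ccr6 UMI 103, a single CD3 UMI 37 and a single Tbx21 UMI 29. At these depths a cell without a UMI of such a gene may still transcribe it.

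Free RNA was estimated at 5.36% of the UMIs in the small intestine cells, from barcodes with 10 to 50 UMIs. It would bring 0.802 Il22 UMIs to a cell of median depth, against the 5 the rule asked for. Cells with ILC2 markers (at least 3 UMIs over Il1rl1, Il17rb, Klrg1, Il5, Il13 and Calca, and no CD3 UMI), a type that should lack Il22, served as another gauge: 59.3% of these 639 cells had an Il22 UMI, but 32 of them, 5.01% (3.45 to 6.996), had 5 or more. Their median depth was 3144 UMIs, above the 2314 of the members. Members were not kept out of the ILC2-marker cells, so a cell could be in both groups. Of the class II genes in the rule, only Cd74 was estimated in this way, at 0.0364 free UMIs in a cell of median depth. The free UMIs of all these genes together were not estimated.

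The ILC3 label was checked on genes outside the rule. Il23r, the IL-23 receptor chain, had a UMI in 18.0% of the members (15.5 to 20.8), 14.6% of the other small intestine cells and 2.50% of the ILC2-marker cells. Il1r1, the receptor for IL-1, had a UMI in 18.3% (15.7 to 21.0), 14.1% and 2.82%. With each cell thinned to 1000 UMIs, which left out no cell of these groups, the Il23r shares were 9.20%, 6.26% and 0.939%, and the Il1r1 shares 8.85%, 5.31% and 0.626%. Summed over the members, Il23r stood at 86.5 CPM (counts per 1000000 UMIs of the group, with an exact Poisson 95% interval of 74.4 to 100.1) against 58.9 in the other cells, and Il1r1 at 91.3 against 56.5. Gata3, the factor that ILC2 need most, stood at 102 CPM against 290.0. Not every ILC3 marker was higher in the members. Of the 8 measured outside the rule, 6 stood above the other small intestine cells and 2 below, Ahr lowest.

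Cxcr5 and Rell1, offered as markers of these cells, were found in a minority. Cxcr5, the receptor for the follicle chemokine CXCL13, had a UMI in 13.3% of the members (11.1 to 15.7), in 6.20% of the other small intestine cells and in 1.72% of the ILC2-marker cells. At 1000 UMIs per cell the Cxcr5 shares were 7.80%, 3.20% and 0.626%. Rell1, which encodes a membrane protein of the RELT family, related to tumour necrosis factor receptors, had a UMI in 38.2% of the members (34.9 to 41.5), 17.8% of the other cells and 7.82% of the ILC2-marker cells. The Rell1 shares at 1000 UMIs were 19.8%, 7.69% and 1.56%. Both shares were above that of the ILC2-marker cells. In the Il22-high cells with Ccr6 or class II, described below, Cxcr5 had a UMI in 22.0% (18.0 to 26.4), above the share of the members, and Rell1 in 29.0% (24.6 to 33.8), below it.

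The small intestine cells carried 15080081 UMIs and the colon cells 22332691, and every value in the table equalled the raw matrix. The libraries shared 60 barcodes, where 56.2 would be shared by chance alone. Markers of other cells were not all at 0 in the members. B and plasma cell genes summed to 392 CPM (Cd79a at 0) against 8428 in the other small intestine cells, epithelial genes to 11.5 CPM against 39.3, and ILC1 and NK genes to 66.9 CPM against 815. ILC2 genes summed to 662 CPM against 1831. Of the lists of other cell types, 3 were higher in the members: stroma or endothelium at 72.2 CPM against 57.1 (5 of 6 genes at 0), dendritic cell at 38.7 against 24.3 (2 of 4 at 0, Flt3 and Xcr1), and macrophage or monocyte at 39.7 against 34.5 (5 of 7 at 0, Lyz2 and Adgre1 among them). Of the 11 T cell genes, Cd3d, Cd3e and Cd3g were at 0 by the rule and Cd8a and Cd5 also had no UMI; the list summed to 1512 CPM against 2017. The part that these cells or their RNA had in the differences below was not tested.

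Among all CD3-negative cells with at least 5 Il22 UMIs, the members were the most numerous class in the small intestine and not in the colon. In the small intestine there were 1875 such cells, of which 45.8% (43.5 to 48.1) were members, 33.1% had Ncr1 or Tbx21, and 21.1% had Ccr6 or class II without Ncr1 or Tbx21. In the colon there were 767, of which 22.6% (19.6 to 25.7) passed the same rule, 17.6% had Ncr1 or Tbx21 and 59.8% had Ccr6 or class II. Tissue and library cannot be told apart, and the median depth of the colon rule cells was 2484 UMIs. These 3 small intestine classes, of 859, 620 and 396 cells, are compared next.

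Against the other 4631 small intestine cells, 14 genes at 50 CPM or more were at least 2-fold higher in the members. These 50 CPM and 2-fold limits define the genes named in each comparison below, with rule genes left out. Of all 10827 genes with 20 UMIs or more in the comparison, 1.73% were at least 2-fold higher and 5.57% at least 2-fold lower. Since the same cells chose the members, these values describe them.
Il17f, the IL-17 family cytokine, stood at 136 CPM (121 to 153) in the members and 49.7 in the others, a ratio of 2.74 (2.37 to 3.15). Its 285 UMIs came from 114 members, with 16 in the highest cell. Rell1 stood at 224 CPM (204 to 245) against 84.5, a ratio of 2.65 (2.37 to 2.95), from 328 members. Cxcr5 stood at 71.2 CPM against 26.7, a ratio of 2.67 (2.18 to 3.24), from 114 members. None of these 3 genes rested on a single cell. Rasl11a, a small GTPase of the Ras-like family, was found in 538 members, at 1014 CPM against 426 in the others (ratio 2.38, 2.26 to 2.50). Asphd2, a gene with an aspartyl hydroxylase domain, stood at 153 against 56.8 CPM. Ptges, which makes prostaglandin E2, stood at 64.0 against 28.0 CPM, and Sdc4, the heparan sulfate proteoglycan syndecan-4, at 944 against 459. The rest were Cryaa, Ccdc184, Ccng2, Tubb2a, Ccdc189 and Rprd1b, at ratios of 2.03 to 2.33, and Chad, at 188 against 93.9 CPM. Chad and Rprd1b were just below 2-fold, Chad at 1.99, when the highest cell for the gene was left out of each group.

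The lower side was larger, with 35 genes, and included genes known from ILC1, NK cells and ILC2. Ccl5, a chemokine of NK and T cells, stood at 15.3 CPM in the members and 342 in the others, 22.3-fold lower (15.8 to 32.7). Gzma, a granzyme, had 4 UMIs in the members, 1.91 CPM against 75.0. Nkg7, a protein of cytotoxic granules, stood at 63.1 CPM against 358, and Xcl1, a chemokine of NK cells, at 54.0 against 213. From the ILC2 side, Il4 stood at 6.21 CPM against 62.8, Il17rb, a chain of the IL-25 receptor, at 14.8 against 69.7, Calca, the CGRP neuropeptide gene, at 25.8 against 252, and Klrg1, an inhibitory receptor, at 20.6 against 147.

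The gene lists, 17 in all, are given by their counts and medians. In the ILC3 identity list 0 of 17 genes were 2-fold higher and 1, Gata3, was lower, with a median log2 ratio of 0.19 beside 0.02 over all genes tested. The IL-23 and STAT3 list had 0 of 11 higher and 1 lower, median 0.24. The NF-κB list had 0 of 17 past 2-fold in either direction, 14 of 17 above 0 and a median of 0.28. The NCR and ILC1 list had 0 higher and 12 of 22 lower, median -1.23, and the class II genes outside the rule 0 higher and 3 of 7 lower, median -0.80. The rule removed cells with Ncr1, Tbx21 or class II UMIs, so both these lists follow the choice of cells. Among 17 effector cytokine genes 2 were higher, Il17f and Il17a, and 3 were lower: the ILC2 cytokine genes Il5 and Il13, and Tnfsf4. Il17a stood at 36.3 CPM against 15.6, but 35 of its 76 UMIs came from 1 member, and the ratio without the highest cell of each group was 1.44. The secretory pathway list had 0 of 24 past 2-fold, and the aryl hydrocarbon receptor list 0 of 6. Ahr itself, a ligand-activated factor that ILC3 need, stood at 60.2 CPM in the members (50.2 to 71.7) and 92.9 in the others.

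**Figure D2:**
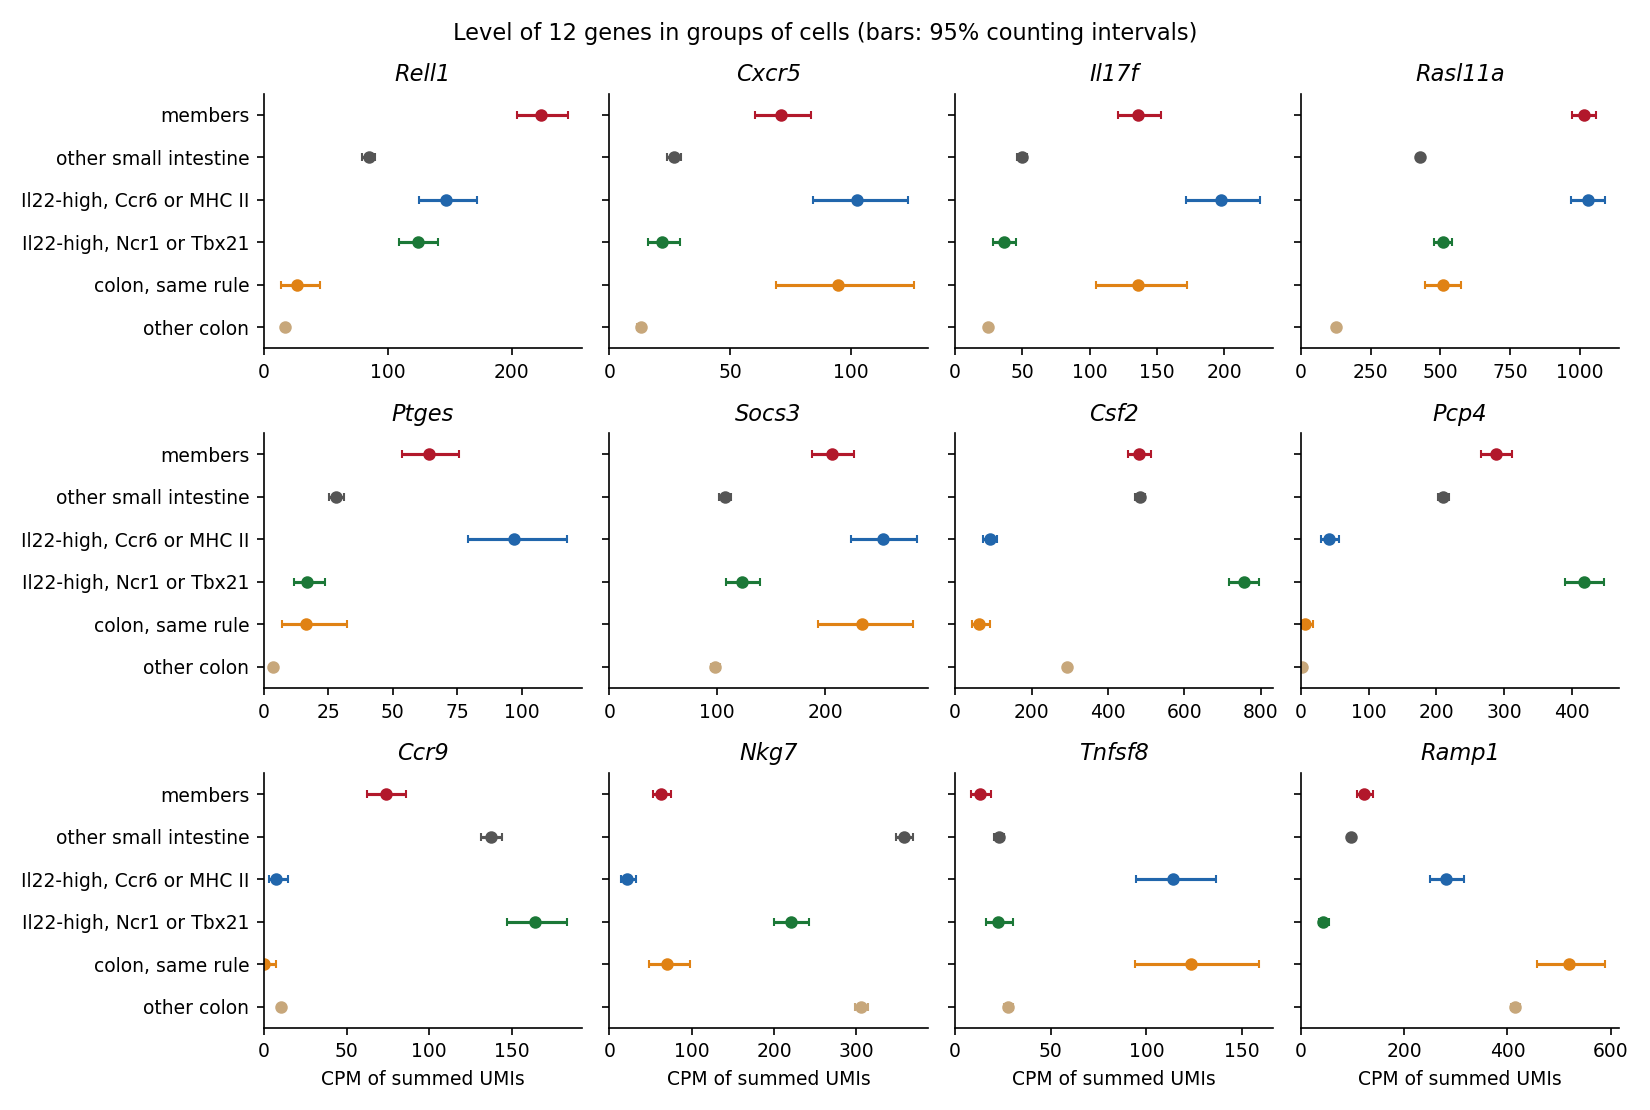
Summed level in CPM of 12 genes (horizontal axes, from 0) in the members, the other small intestine cells, the small intestine groups most like them and the colon cells, with exact Poisson 95% intervals. Rell1 was highest in the members at 224 CPM, Cxcr5 and Il17f stood between the Ccr6 or class II cells and the Ncr1 or Tbx21 cells, and so did Csf2, Pcp4 and Ccr9 in the opposite order.

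The Il22-high cells with Ccr6 or class II, the LTi-like side, were chosen by the same Il22 threshold as the members. Il22 made up 1.18% of their UMIs, a value given only as a description. Their other effector genes differed from those of the members. Over the 8453 genes tested, 4.2% were at least 2-fold higher in the members and 3.32% lower. Csf2, which encodes the growth factor GM-CSF, stood at 482 CPM in the members and 90.4 in these cells, a ratio of 5.33 (4.32 to 6.64). Pcp4, a calmodulin-binding peptide, stood at 288 against 41.4 CPM, a ratio of 6.96 (5.12 to 9.68). Ccr9, the receptor for the small intestinal chemokine CCL25, stood at 73.6 against 7.53 CPM, a ratio of 9.77 (4.84 to 23.0). Csf2 UMIs were found in 240 members, Pcp4 in 155 and Ccr9 in 106. Higher too were Cxcr3, a receptor for interferon-induced chemokines (69.3 against 10.4 CPM), Cxcl2, a neutrophil chemokine (616 against 174), the granzyme inhibitor gene Serpinb9 (638 against 173), Ctsw, Lgals1, Actn2 and Rbpms2. Of 15 effector cytokine genes measured 5 were higher and 3 lower, and of 17 NCR and ILC1 genes 10 were higher and 1 lower, with medians of 0.59 and 1.19 beside 0.02 for all genes. Ifng stood at 35.8 CPM against 1.88, which was 2 UMIs.

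On the lower side, 4 of the 10 LTi-associated receptor genes outside the rule were at least 2-fold lower in the members (Ccr7, Cd4, Cd81 and Nrp1) and 0 were higher, with a median log2 ratio of -0.55. Cd44 and Itgb7 of that list stood above 0, at 0.51 and 0.39. The groups were split on Ccr6 and class II UMIs, so the list follows the choice of cells. Ccr7, which guides cells to lymph nodes, stood at 7.17 CPM against 74.4, 10.4-fold lower (5.93 to 19.4). Tnfsf8, the CD30 ligand, stood at 12.9 against 114 CPM, 8.83-fold lower (5.78 to 13.9). Cd4, carried by many mouse LTi cells, stood at 10.5 against 81.9 CPM, 7.79-fold lower (4.84 to 13.1), and Piwil4 at 7.65 against 66.9. Il17f was the reverse of Csf2, at 136 CPM in the members and 198 in these cells, and Cxcr5 at 71.2 against 103. A further 6 genes past the limits, Olfm4, Mzb1, Lgals2, Krt8, Krt19 and Epcam, rested on single comparison cells: 110 of 111 Olfm4 UMIs, 79 of 80 Mzb1 UMIs, 88 of 88 Lgals2 UMIs, 92 of 94 Krt8 UMIs, 59 of 60 Krt19 UMIs and 54 of 55 Epcam UMIs lay in 1 barcode for each gene. Without the highest cell the Epcam ratio was 0.995. These cells also summed to 16880 CPM of B and plasma cell genes and 240.1 CPM of epithelial genes, against 392 and 11.5 in the members, and without the cells that carry more than 10 antibody UMIs or any epithelial UMI, a setting chosen after the data were seen, the counts were 367 genes higher and 274 lower in place of 355 and 281.

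Against the Il22-high cells with Ncr1 or Tbx21, 2.41% of 8825 genes were at least 2-fold higher in the members and 1.75% lower. Il17f was 3.77-fold higher (2.90 to 4.97), at 136 against 36.1 CPM. Ptges was 3.82-fold higher (2.59 to 5.77), at 64.0 against 16.8 CPM, and Cxcr5 3.26-fold higher (2.31 to 4.69), at 71.2 against 21.9. Ramp1, a subunit of the CGRP receptor, stood at 123 against 43.7 CPM, the tetraspanin gene Cd81 at 154 against 55.9, the transcription factor gene Batf3 at 90.8 against 34.6, and Aldh2, an aldehyde dehydrogenase, at 58.3 against 19.3. Hmgn3, Cryaa and Ifngr2 were 2.53-fold to 2.71-fold higher. Vipr2, a receptor for the neuropeptide VIP, stood at 18.6 against 4.58 CPM. Of the neuropeptide, purine and lipid signal genes 4 of 15 were higher and 0 lower, and of the LTi-associated receptors 3 of 10 were higher and 1, Ccr7, lower.

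The genes lower than in the Ncr1 or Tbx21 cells included NK genes. Nkg7 stood at 63.1 against 221 CPM, 3.50-fold lower, Xcl1 at 54.0 against 186, the NK receptor gene Klrb1c at 38.7 against 116, and Ctsw at 156 against 371. The chemokine gene Ccl4 stood at 56.9 against 245 CPM, although 77 of the 119 Ccl4 UMIs of the members lay in 1 cell. Of 19 NCR and ILC1 genes 0 were higher and 11 lower, median -1.23 beside 0.00. The groups were split on Ncr1 and Tbx21 UMIs, so this list follows the choice of cells. Csf2 and Pcp4 were less abundant in the members, at 482 against 755 CPM and 288 against 417, and the class depth differed, with a median of 2951 UMIs in these cells. In summed levels the members thus stood between the branches in these genes. They were below the Ccr6 or class II cells in Il17f, Cxcr5, Ptges and Batf3 and above them in Csf2, Pcp4 and Ccr9. The genes came from these same comparisons, and each level is an average over members that differed by cluster, as described below. Socs3, the feedback inhibitor that STAT3 induces, was ordered like Il17f, at 206 CPM (187 to 227) in the members, 253 in the Ccr6 or class II cells and 123 in the Ncr1 or Tbx21 cells. Rell1 did not follow that order, with 224 CPM in the members, 147 (125 to 172) in the Ccr6 or class II cells and 124 (109 to 141) in the Ncr1 or Tbx21 cells.

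The 5490 cells were clustered on variable genes without the 11 rule genes, and the members fell into several of the 10 clusters. Cluster 6, led by Cxcr5, Cryaa, Rell1 and Rasl11a, held 466 members, 54.2%. Cluster 0, led by Pcp4, Dppa2 and Cxcl2, held 179, or 20.8%, cluster 5, led by Parvb, Prss2, Piwil4 and Cd4, 116, or 13.5%, and cluster 1, led by Ifng and Slc6a20a, 56, or 6.52%. Of the remaining 42 members, 29 lay in cluster 2, led by Hspa1a and Hspa1b, and 11 in cluster 4, led by Ccl1, Il1rl1 and Il5. Clusters 3 and 8 held 1 each. Clusters 4 and 8 also held 405 and 210 of the ILC2-marker cells. The like groups were placed differently: cluster 5 held 76.3% of the Ccr6 or class II cells, and clusters 0 and 1 held 44.7% and 25.8% of the Ncr1 or Tbx21 cells. Members made up 46.6% of the 1001 cells of cluster 6, where 10.6% of cells had a Ccr6 UMI, 14.6% an Ncr1 UMI and 6.19% more than 1 class II UMI. In cluster 5 the Ccr6 share was 41.5% and in cluster 0 the Ncr1 share was 54.7%.

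**Figure D3:**
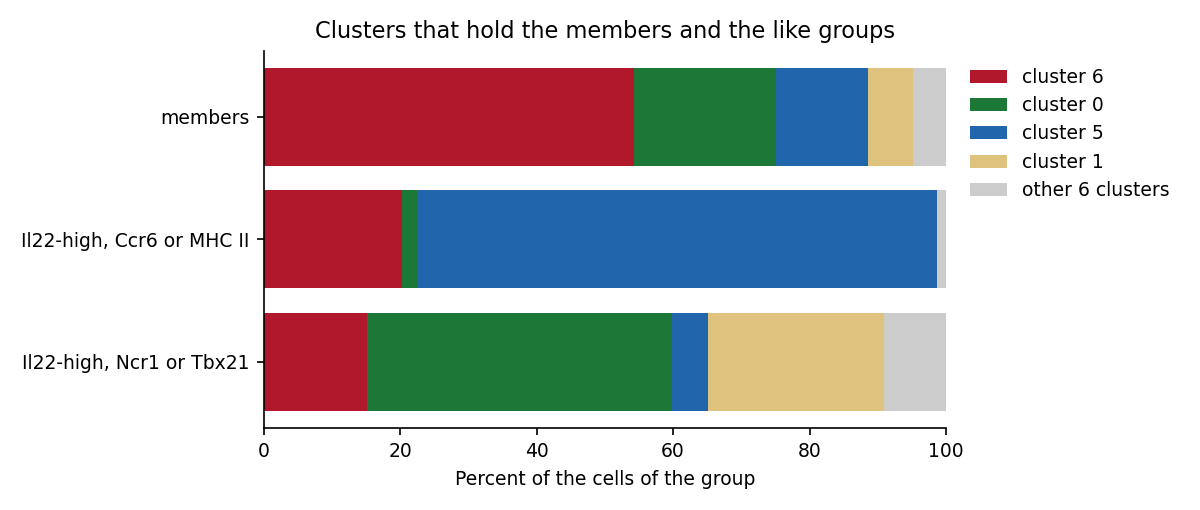
Share of each small intestine group (horizontal axis, percent of its cells) in clusters 6, 0, 5 and 1 and in the other 6 clusters. Members lay mostly in cluster 6 (54.2%), the Ccr6 or class II cells in cluster 5 (76.3%), and the Ncr1 or Tbx21 cells in cluster 0 (44.7%).

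Members of different clusters had unlike effector genes. The median Il22 share of a cell's UMIs was 0.942% in cluster 6, 0.742% in cluster 0, 0.890% in cluster 5, 0.552% in cluster 1 and 0.368% in the other clusters, among cells all chosen for Il22. The genes that follow also shaped the clusters, so their levels are descriptions. Csf2 stood at 195 CPM (168 to 224) in the members of cluster 6, 1066 in cluster 0, 43.7 in cluster 5 and 739.9 in cluster 1. Pcp4 stood at 75.9, 813, 14.6 and 236 CPM in the same order, and Ccr9 at 27.0, 127, 7.28 and 249. These 3 genes were thus high in clusters 0 and 1. Cxcr5 went the other way, at 109, 20.8, 102 and 0 CPM, the 0 being of a cluster with few members whose interval reached 24.2 CPM. Ptges stood at 99.8, 7.56, 98.3 and 0 CPM, and Batf3 at 119, 11.3, 229 and 0. Rell1 was high in 3 clusters and low in cluster 1, at 283, 206, 200.2 and 45.8 CPM. Nkg7 reached 347 CPM in cluster 1 and 9.98 in cluster 6, and Ifng 229 and 9.98. Tnfsf8, at 76.4 CPM in cluster 5, was at 5.99 in cluster 6 and at 0 in the others.

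Between members of clusters 6 and 0, of 6607 genes 5.45% were at least 2-fold higher in cluster 6 and 3.97% lower, while 0 of 13 effector cytokine genes were higher and 8 lower, median -1.22. Between clusters 0 and 5, where 8.1% of 4828 genes were higher and 5.36% lower, 9 of 12 NCR and ILC1 genes were higher in cluster 0 and 0 lower, and 5 of 17 NF-κB genes were higher and 0 lower. Between clusters 6 and 5, where 6.01% of 6204 genes were higher and 3.43% lower, 4 of 9 NCR and ILC1 genes were higher in cluster 6 and 0 lower. Median depth differed with the cluster, from 2102.5 UMIs in the members of cluster 6 to 2875 in those of cluster 0, and its part was not tested.

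**Figure D4:**
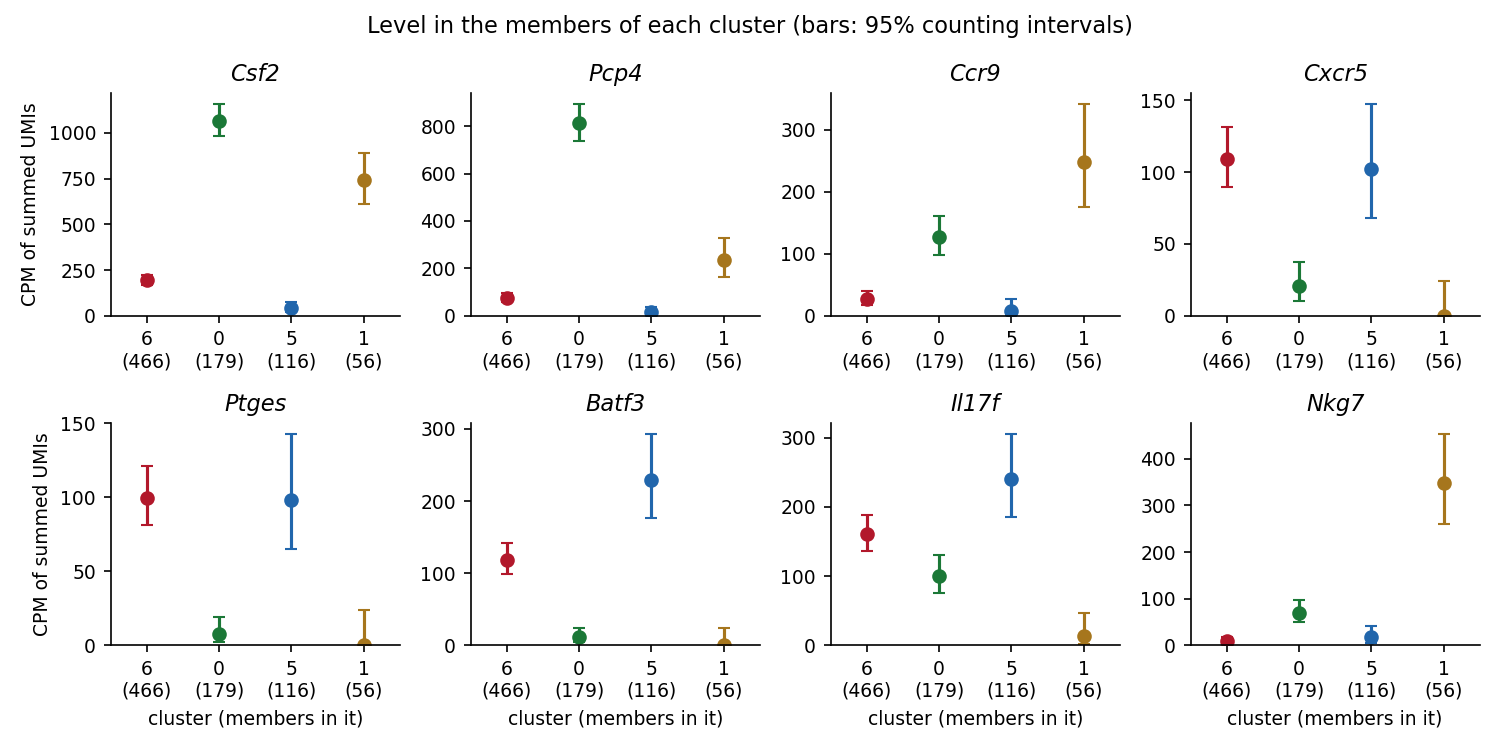
Summed level in CPM (vertical axes, from 0) of 8 genes in the members of clusters 6, 0, 5 and 1, with the number of members in parentheses and exact Poisson 95% intervals. Csf2, Pcp4 and Ccr9 were high in clusters 0 and 1, and Cxcr5, Ptges and Batf3 in clusters 6 and 5.

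Pairs of these genes were also counted within single members. Csf2 and Pcp4 were found together in 82 members, 9.55%, where the product of their separate shares is 5.04%. Ccr9 and Pcp4 shared 44 members, 5.12% against 2.23%. Cxcr5 and Ccr9 shared only 4, 0.466% against 1.64%, and Il17f and Ccr9 5, 0.582% against 1.64%. Cxcr5 and Rell1 shared 50, 5.82% against a product of 5.07%. Cells with both Csf2 and Pcp4 were deeper, with a median of 2983 UMIs against 2314 for all members, and the part of depth was not tested.

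When the members were ordered by the Il22 share of their UMIs and divided into 3 equal parts, the upper part held 67.1% of the members' Il22 UMIs, at a median of 47.5 UMIs per cell against 8 in the lower part. Of 6452 genes, 1.43% were at least 2-fold higher in the upper part and 3.3% lower. Il22 also chose the members, so the levels are descriptions. The Il22 share differed between clusters, and the part of the clusters was not tested. Tnfrsf9 stood at 32.8, 55.6 and 80.6 CPM from the lower to the upper part, and Marcksl1 at 90.2, 165 and 216. Cxcr5 stood at 50.6, 72.1 and 92.1 CPM, and Rasl11a at 809, 1035 and 1209. Among genes of cytotoxic granules, Nkg7 went down, at 113, 43.5 and 28.8 CPM, while the granzyme genes Gzmc, at 62.9, 108 and 135, and Gzmb, at 45.1, 67.6 and 90.6, went up. Rell1, at 199.6, 258 and 216 CPM, did not follow Il22 in that way. Il17f stood at 86.1 CPM in the lower part and at 164 and 163 in the others. The IL-23 and STAT3 list had 0 of 10 genes past 2-fold, and the ILC3 identity list 0 of 17. Ccl4 also passed, at 127 against 20.5 CPM, with 77 UMIs in 1 cell.

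In the colon 173 of 7549 cells, 2.29% (1.97 to 2.65), passed the same rule, at a median of 18 Il22 UMIs. Set against the other colon cells, most of the genes named above stood on the same side. Of the 14 genes named as higher, 14 were above 1-fold in the colon and 13 were at least 2-fold higher, where 9.19% of 11211 genes were at least 2-fold higher and 8.14% lower. Of the 15 lower genes named, 14 were also lower in the colon, 12 of them at least 2-fold. Gzma and Ccl3 had no UMI in the 173 cells. Cxcr5 stood at 94.6 CPM against 12.9, a ratio of 7.33 (5.24 to 10.0), and Il17f at 136 against 24.5, a ratio of 5.54 (4.22 to 7.16). Rell1 was the exception, at 26.7 CPM from 13 UMIs against 17.4, a ratio of 1.54 (0.811 to 2.66). A Rell1 UMI was found in 6.94% of the colon rule cells (3.64 to 11.8), an interval that includes the 4.57% of the colon ILC2-marker cells. These cells were chosen by the same readout, so this is a description in another library.

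Against the colon Il22-high cells with Ccr6 or class II, 2.13% of 7188 genes were at least 2-fold higher and 5.4% lower. Ccr7 stood at 315 against 929.7 CPM and Cd4 at 92.5 against 203, while Csf2 stood at 63.7 CPM (43.3 to 90.5) against 60.5 (49.2 to 73.7). Against the colon Il22-high cells with Ncr1 or Tbx21, 2.07% of 5274 genes were higher and 3.15% lower. Il17f stood at 136 against 55.8 CPM and Cxcr5 at 94.6 against 40.6. Of 16 NCR and ILC1 genes 0 were higher and 10 lower, a list that follows the choice of cells here too.

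**Figure D5:**
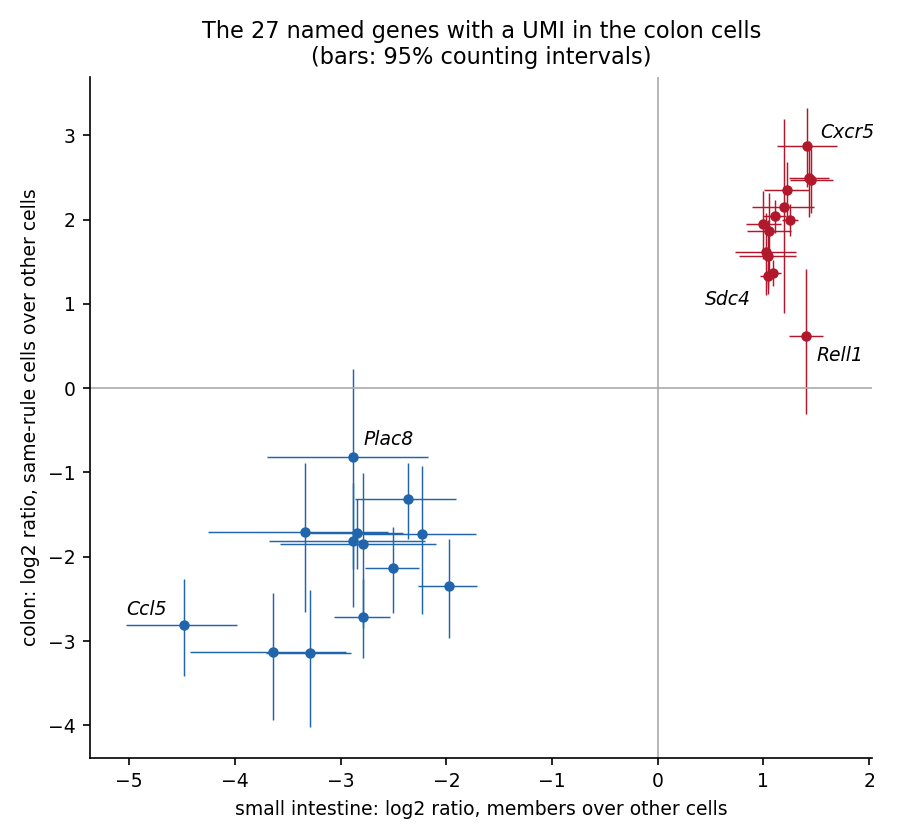
Log2 ratio of each named gene in the members over the other small intestine cells (horizontal axis) and in the colon cells of the same rule over the other colon cells (vertical axis), for the 27 genes with a UMI in those colon cells, with 95% counting intervals. Red points are genes higher in the members and blue points lower ones, and Rell1 lies lowest among the red points, at 0.62 on the colon axis.

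Set directly against the 173 colon cells of the same rule, 12.9% of 7920 genes were at least 2-fold higher in the members and 3.12% lower. Tissue, library and depth cannot be told apart here. Pcp4 stood at 288 CPM against 6.17, which was 3 UMIs in 1 colon cell, a ratio of 46.7 (15.9 to 227). Ccr9 had no colon UMI, which makes the members at least 9.59-fold higher, the lower counting limit of the 11.9-fold found against a floor of 3 counts over the colon cells. Csf2 stood at 482 against 63.7 CPM, a ratio of 7.56 (5.29 to 11.2), and Rell1 at 224 against 26.7, a ratio of 8.37 (4.85 to 15.8). Ffar2, which senses bacterial fermentation products such as acetate, stood at 199 against 24.7 CPM, and the early response gene Nr4a1 at 1611 against 384. Il17f stood at 136 CPM (121 to 153) in the members and at 136 CPM (105 to 173) in the colon cells. Of 14 neuropeptide, purine and lipid signal genes 10 were higher in the small intestine and 1, Ramp1, lower at 123 against 520.1 CPM, with a median of 1.65 beside 0.22 for all genes. Of 17 immediate early genes 5 were higher and 0 lower, median 0.56.

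Lower in the members than in the colon cells were Ccr7 (7.17 against 315 CPM, 43.9-fold, 25.8 to 80.3), Tnfsf8 (12.9 against 123), Cd4 (10.5 against 92.5), the inhibitory receptor gene Pdcd1 (42.1 against 245), the adaptor gene Tyrobp (19.6 against 123), Krt83 (41.1 against 481), Adam8, Cd28, Ctla2a and Hspa1a. Of the 317 colon Hspa1a UMIs 108 lay in 1 cell. Tnfsf11, which encodes RANKL, an LTi cell product, stood at 734 CPM in the members and 1926 in the colon cells. The colon cells that passed the rule thus held more Ccr7, Cd4 and Tnfsf8 than the members, the same genes that separated the members from the Ccr6 or class II cells of their own library.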

How the data were processed

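The authors deposited a table of UMI counts for 17238 genes in their chosen cells, and raw count matrices of 31053 genes by 737280 barcodes for each library, made with Cell Ranger 3.0.2 on mm10 per the submitters' processing notes. How the authors chose cells is not given in the sources used here. The UMI counts of the table were used as deposited, with no further cell filter, after they were checked against the matrices (0 differing values, and 0 columns without a sample).

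The members, the gene lists and the markers were chosen with earlier results of these data known. Each group's level of a gene is its share of all the group's UMIs, as CPM. Levels have exact Poisson 95% intervals, ratios have exact conditional binomial ones and shares have Clopper-Pearson ones (scipy 1.17.1), all for counting error only, since each tissue has 1 library. A comparison used genes with at least 20 UMIs in both groups together. Named were genes at 50 CPM or more in the higher group and at least 2-fold apart, also after free RNA was subtracted, in the order of the interval's bound nearest to 1: the first 15 in each direction against the other small intestine cells and the first 10 in each other comparison. The 11 rule genes and mitochondrial, ribosomal, antigen receptor, hemoglobin, sex-linked and predicted genes were not named. Il22, Cxcr5, Rell1 and genes of the lists were named too, and Dppa2, Parvb and Prss2 only as leading genes of clusters. A count of 0 was given a floor of 3 UMIs over the group.

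Cells were clustered with scanpy 1.11.5 (2000 variable genes, 30 components, 15 neighbours, Leiden resolution 1). Scrublet's automatic threshold marked 6 small intestine cells, 0.109%, and so had not worked there; in the colon it marked 587 cells, 7.78%, beside 6.04% expected. No doublet was removed from either library, and leaving out the 241 and 456 cells of highest score, 29 members and 21 colon rule cells among them, was an alternative. Several genes of the marker lists, Csf1r and Col1a1 among them, were not used here. Some genes of the lists, and a planned comparison with Il22-low cells, are not reported here, and the ILC2-marker definition was shortened for that reason after the data were seen. The comparison was tested on simulated counts. A gene with few UMIs can pass 2-fold through counting error alone, so shares of genes past 2-fold include such genes.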

Additional observations from a re-analysis of the deposited data

Results flagged for a closer look

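Among the named genes and those of the lists, 7 stood on opposite sides in the 2 tissues, rule cells against other cells. Their counting intervals excluded a ratio of 1 in both tissues, and the ratio was at least 2-fold in at least 1. Other genes were not searched, so 7 is not a count over all genes. Whether the tissues differ was not tested, since each has 1 library, and tissue and library cannot be told apart. Ccr7 had a log2 ratio of 1.11 in the colon (315 against 145 CPM in the other colon cells) and -1.95 in the small intestine (7.17 against 27.7). Tnfsf8 had a log2 ratio of 2.15 in the colon (123 against 27.7 CPM) and -0.84 in the small intestine (12.9 against 23.0). Cd4 had 1.41 in the colon (92.5 against 34.9 CPM) and -0.75 in the small intestine (10.5 against 17.7). Klrb1f, an NK receptor gene, had 1.45 in the colon (63.7 against 23.3 CPM) and -0.67 in the small intestine (52.1 against 82.7).

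Hspa1a had a log2 ratio of 1.48 in the colon (652 against 234 CPM) and -1.76 in the small intestine (43.0 against 146); 108 of its 317 UMIs in the colon rule cells lay in 1 cell. Il17a had -2.84 in the colon, from 1 UMI, and 1.22 in the small intestine, where 35 of 76 UMIs lay in 1 member. Krt8, an epithelial keratin gene, had 3.39 in the colon, where 6 of 7 UMIs lay in 1 cell, and -3.04 in the small intestine, from 3 UMIs in the members.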

How the results depend on the processing

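With 1 library per tissue no replicate could be left out. No paired analysis was possible because the result comes from no test and each tissue has 1 sample. Of 143 values of a share or a gene count under another setting, 114 stayed within 1.5 times the count or within the interval of the share. The share of members was 18.8% with at least 3 Il22 UMIs, 12.02% with at least 10, 13.8% with no class II UMI, 18.2% without the Ccr6 condition, 14.4% in cells of 2000 to 4000 UMIs and 17.0% in cells thinned to 1000 UMIs. In the colon it was 2.83% with at least 3 Il22 UMIs, 1.74% with at least 10, 1.47% with no class II UMI, 3.29% with up to 3, 2.80% without the Ccr6 condition and 4.001% in thinned cells.

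With a filter of 10 UMIs per gene, the genes at least 2-fold higher in the members numbered 339 against the other small intestine cells, and the higher and lower genes 553 and 456 against the Ccr6 or class II cells, and 388 and 277 against the Ncr1 or Tbx21 cells, with 401 lower against the colon cells. With 50 UMIs the higher and lower genes numbered 96 and 361, 162 and 113, and 74 and 59 against these small intestine groups in the same order, and 463 and 98 against the colon cells. These counts move because the filter changes which genes are counted. The cluster with most members held 68.9% at resolution 0.5, 40.3% at resolution 2 and 46.4% with the rule genes kept.

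Epcam against the Ccr6 or class II cells changed sign when at least 10 Il22 UMIs were asked for, to a log2 ratio of 0.063; 54 of its 55 UMIs in those cells lay in 1 cell. No other named gene changed sign under the settings tried. Of 1335 values of named genes under these settings, 98 were marked as moved and 1, that of Epcam, as reversed. Against the other small intestine cells, Ccdc189, Chad, Rprd1b, Sdc4 and Tubb2a were under 2-fold in 3 to 8 of 15 settings, and the other named genes stayed past 2-fold in all 15. Leaving out cells with antibody or epithelial UMIs was chosen after the data were seen. So was leaving out the highest cell of each group for a gene. That step moved 4 of the 83 named ratios that still had a value beyond their interval. Olfm4, Mzb1 and Lgals2 against the Ccr6 or class II cells had no value left, nor had Pcp4, Ccr9 and Cd28 against the colon cells. Depth limits calls of absence: the median member had 2314 UMIs, and 99 members had a class II UMI.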

Other observations

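Some growth factor and tumour necrosis factor family genes also differed in level between the members and the other small intestine cells, within 2-fold. Tnfsf4, at least 2-fold lower, is given above. Tnfsf11 stood at 734 CPM (698 to 772) in the members against 459.9, Hbegf, an epidermal growth factor family member, at 295 (272 to 319) against 164, and Ltb, a lymphotoxin chain, at 984 (942 to 1027) against 775. Areg, another ligand of the epidermal growth factor receptor and abundant in ILC2, stood at 150.1 CPM (134 to 168) against 240.3. Hbegf was higher in the members than in the Ccr6 or class II cells (221 CPM) and the Ncr1 or Tbx21 cells (241), while Tnfsf11 and Ltb were higher in the Ccr6 or class II cells, at 1025 and 1181 CPM.

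The remaining lists are given as counts against the other small intestine cells, where 1.73% of all genes were at least 2-fold higher and 5.57% lower. Of 17 homing and retention genes 1, Cxcr5, was higher and 6 lower (Ccr7, Ccr10, Itgae, S1pr1, Klf2 and Ccr8). Of 18 interferon-stimulated genes 1, Iigp1, was higher and 0 lower, and of 10 heat shock genes 0 were higher and 2 lower (Hspa1a and Hspa1b). Of 23 immediate early genes 0 were higher and 4 lower (Fosl1, Egr2, Dusp2 and Myc), of 22 cytokine receptor genes 0 and 3 (Il6st, Il21r and Ifnar1), of 18 glycolysis genes 0 and 1 (Slc16a3), and of 13 cell cycle genes 0 and 2 (Cdk1 and Cdca8). Of 19 neuropeptide, purine and lipid signal genes 1, Ptges, was higher and 2 lower (Nmur1 and Adora2a), and of 10 LTi-associated receptor genes 1 was higher, Cxcr5, and 1 lower, Ccr7.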
